A study of Graphilbum sp. with 6 samples.

Results

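Secreted and surface proteins are described here through 4 genes of the fungus Graphilbum sp., chosen by their feature names from the 26694 assembled features of the expression table. By their deposited best-hit descriptions, they encode a CFEM domain protein (TRINITY_DN509_c0_g1), a second, extracellular membrane CFEM protein (TRINITY_DN4791_c0_g1), an extracellular serine-rich protein (TRINITY_DN19109_c0_g1) and a beta-glucan-binding protein (TRINITY_DN20263_c0_g1). All 4 have their best hit in Ophiostomatales, the order of Graphilbum, as do 4613 features in all. The genes were chosen with earlier results of these libraries in view, so their difference between the groups is a description and carries no p-value. RNA, not protein, was measured, and where the proteins reside was not tested.

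The cultures, on potato dextrose agar, were 5 days old and held at 28 °C, and every library carries the 24 h label. The study set 3 control libraries against 3 libraries of hyphae exposed to about 300 individuals of Bursaphelenchus xylophilus, the pine wilt nematode, to see how the fungus responds to a nematode that feeds on hyphae. No genotype other than the species is given, and the labels do not say what made the replicates separate, so the errors below measure the spread between these samples. Values were deposited in TPM, a length-scaled share of everything assembled in a library.

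CFEM domains are cysteine-rich modules named for their occurrence in fungal extracellular membrane proteins. Some are held at the wall or membrane by a glycolipid (GPI) anchor, some are secreted, and in the yeast Candida albicans several bind heme and pass on its iron. Fungal walls are built on beta-glucan, and proteins that bind it sit in the wall or are released, as in root endophytes. Serine-rich extracellular proteins commonly carry sugars added in the secretory pathway by O-mannosyltransferases. Sequences of these features were not used here.

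The Ophiostomatales-hit features took 68.5%, 69.4% and 70.0% of TPM in the 3 controls, in the order of their replicate numbers as in all such lists here, against 28.7%, 39.4% and 38.4% in the nematode libraries. Features with at least 1 TPM in every nematode library and under 1 TPM in every control numbered 13300. They took 53.7%, 39.9% and 40.4% of TPM in the nematode libraries and at most 0.00789% in a control. Each library was therefore divided by the median ratio of its Ophiostomatales-hit features to their geometric mean, and values on this scale are called rescaled TPM. Control replicate 3 stood apart on that scale: its root mean square log2 distance over fitted features was 0.60 from control replicate 1 and 0.63 from control replicate 2, against 0.29 between those 2 libraries and 0.35 to 0.36 among the nematode libraries. Among keywords for nematode transcripts, such as vitellogenin and major sperm protein, 1 description matched, a myosin heavy chain with a Sporothrix hit. Only 13460 of the 26694 features have a description, so this search cannot decide whether nematode RNA was present.

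The 4 genes together made up 0.0457%, 0.0489% and 0.0334% of Ophiostomatales-hit TPM in the controls and 0.232%, 0.314% and 0.209% with nematodes. All 4 were higher in every nematode library than in any control, in rescaled TPM and in TPM as deposited. Such separation upward was found in 480 of 4568 fitted features (10.5%) and downward in 7.79%, and nothing is read from it for genes that were chosen on this contrast. In bulk RNA, more expressing cells and more RNA per cell cannot be told apart.

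The CFEM protein TRINITY_DN509_c0_g1 had the largest difference. It was at 4.17, 8.92 and 6.50 rescaled TPM in the controls and at 301.1, 337.1 and 376.2 with nematodes. The lowest nematode library was 33.7-fold above the highest control. The means were 6.53 ± 2.38 (SD, n = 3) and 338.1 ± 37.6 (SD, n = 3), a 51.8-fold ratio and a log2 difference of 5.54 ± 0.24 SE on log2(rescaled TPM + 1). It ranked first of the 4568 fitted features in this difference. In the controls only 7.44% to 12.1% of Ophiostomatales-hit features had a lower level, and with nematodes 86.0% to 89.4% did.

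The extracellular membrane CFEM protein TRINITY_DN4791_c0_g1 differed far less. It was at 10.5, 9.79 and 5.04 rescaled TPM in the controls and at 26.6, 27.9 and 25.1 with nematodes. Control replicate 3 was the lowest library, and the nematode libraries lay close together. The means were 8.45 ± 2.98 (SD, n = 3) and 26.5 ± 1.43 (SD, n = 3), a 3.14-fold ratio and a log2 difference of 1.60 ± 0.26 SE, or 1.31 without control replicate 3. With nematodes 23.0% to 24.6% of Ophiostomatales-hit features had a lower level, so the gene stayed in the lower part of the range. Quantile normalization of the whole table turned its direction (log2 difference -1.35), with the class median then at -1.57.

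The descriptions held 3 CFEM features in all, and the third, TRINITY_DN247_c0_g2, was not among the chosen genes. It was at 37.4, 35.3 and 30.9 rescaled TPM in the controls and at 40.3, 40.0 and 45.2 with nematodes. The groups did not overlap, but the log2 difference of 0.27 ± 0.12 SE did not pass (limma, adjusted p = 0.474). Its direction turned in TPM as deposited (-0.53) and after quantile normalization (-1.75), where the class median lay at -0.82 and -1.57. Minus the class median, TRINITY_DN247_c0_g2 lay at 0.30 as reported, 0.30 in TPM as deposited and -0.18 after quantile normalization. Its assembly cluster holds 2 features, whereas each chosen gene is the single feature of its cluster, so reads could be divided between related features only for this gene as far as the names show.

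Ratios of CFEM features within a library do not change when each library is multiplied by its own factor, though quantile normalization does change them. They are given here in deposited TPM. The ratio of TRINITY_DN509_c0_g1 to TRINITY_DN247_c0_g2 was 0.112, 0.253 and 0.210 in the controls and 7.47, 8.43 and 8.32 with nematodes. TRINITY_DN247_c0_g2 was thus the more abundant of this pair in every control and the less abundant in every nematode library. The ratio of TRINITY_DN4791_c0_g1 to TRINITY_DN247_c0_g2 was 0.282, 0.277 and 0.163 in the controls and 0.660, 0.698 and 0.555 with nematodes. It stayed below that of equal abundance throughout. Such ratios show that the CFEM features moved unequally, and cannot show that any of them stayed the same.

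The extracellular serine-rich protein TRINITY_DN19109_c0_g1 was the most abundant of the 4 genes in every library. It was at 430.6, 483.2 and 320.1 rescaled TPM in the controls and at 1882, 2414 and 1516 with nematodes. Replicate 2 was the highest and replicate 3 the lowest in both groups. The means were 411.3 ± 83.3 (SD, n = 3) and 1937 ± 451.5 (SD, n = 3), a 4.71-fold ratio and a log2 difference of 2.23 ± 0.22 SE. Ordered by level among the Ophiostomatales-hit features, it stood at place 434, 404 and 596 in the controls and at place 72, 40 and 93 with nematodes.

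The beta-glucan-binding protein TRINITY_DN20263_c0_g1 was at 22.9, 24.6 and 18.0 rescaled TPM in the controls and at 70.0, 55.3 and 103.8 with nematodes. The nematode libraries were well separated from each other, with replicate 3 highest. The means were 21.9 ± 3.44 (SD, n = 3) and 76.4 ± 24.9 (SD, n = 3), a 3.49-fold ratio and a log2 difference of 1.72 ± 0.24 SE. Without nematode replicate 3 the log2 difference was 1.48. Quantile normalization of the whole table turned its direction (-0.34, with the class median at -1.57).

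**Figure D1:**
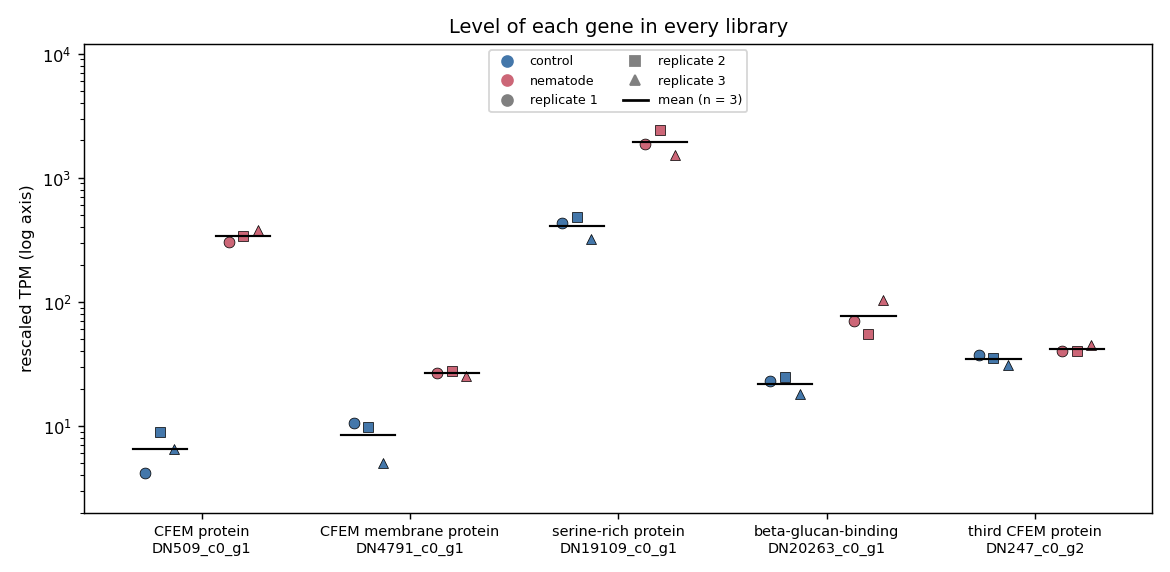
Rescaled TPM (log axis) of the 4 genes and the third CFEM feature in each of the 6 libraries. Colours give the group, symbols the replicate number and horizontal lines the mean of 3 libraries; the nematode libraries of TRINITY_DN509_c0_g1 sit at 301.1 to 376.2 against 4.17 to 8.92 in the controls, and those of TRINITY_DN247_c0_g2 at 40.0 to 45.2 against 30.9 to 37.4.

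The order of the genes by level changed between the groups. TPM is scaled by length, so levels can be compared between genes. In control replicates 1 and 2 the order from the top was serine-rich protein, beta-glucan-binding protein, extracellular membrane CFEM protein and TRINITY_DN509_c0_g1. In control replicate 3 the 2 CFEM proteins changed places, and their control values overlapped. In all 3 nematode libraries TRINITY_DN509_c0_g1 stood second, above the beta-glucan-binding protein, and the extracellular membrane CFEM protein was lowest. The ratio of the serine-rich protein to TRINITY_DN509_c0_g1 was 103.2, 54.2 and 49.2 in the controls and 6.25, 7.16 and 4.03 with nematodes. That of the serine-rich to the beta-glucan-binding protein was 18.8, 19.6 and 17.8 in the controls, a narrow range, and 26.9, 43.7 and 14.6 with nematodes, which overlap the control values.

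The spread between replicates differed among the genes. With nematodes, the coefficient of variation was 32.6% for the beta-glucan-binding protein and 23.3% for the serine-rich protein, against medians of 7.73% and 9.36% over the 1911 and 139 fitted features within 2-fold of their level. It was 11.1% for TRINITY_DN509_c0_g1 beside 7.53% for features of its level, and 5.38% for the extracellular membrane CFEM protein beside 10.2%. In the controls the values were 36.4% beside 24.1% for TRINITY_DN509_c0_g1, 35.3% beside 22.7% for TRINITY_DN4791_c0_g1, 20.2% beside 15.3% for the serine-rich protein and 15.7% beside 17.3% for the beta-glucan-binding protein. None of these gaps was tested.

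The size of the differences followed the scaling of the libraries. A scaling that gives each library a single factor shifts all log2 differences by nearly the same amount. Such scalings could therefore hardly change the order of the features, and nothing is read from ranks that they kept. In TPM as deposited, where the class median lay at -0.82, the log2 differences were 4.61 for TRINITY_DN509_c0_g1, 1.39 for TRINITY_DN19109_c0_g1, 0.89 for TRINITY_DN20263_c0_g1 and 0.77 for TRINITY_DN4791_c0_g1. The ratios of mean deposited TPM were 29.8-fold, 2.71-fold, 1.98-fold and 1.79-fold. TRINITY_DN509_c0_g1 ranked first under all 5 scalings, quantile normalization included. TRINITY_DN19109_c0_g1 ranked place 10, TRINITY_DN20263_c0_g1 place 14 to 16 and TRINITY_DN4791_c0_g1 place 19 under the median ratio, TMM (trimmed mean of M values), the upper quartile and TPM as deposited. After quantile normalization, which can change the order, these 3 stood at place 3, 53 and 1849 of 4613.

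**Figure D2:**
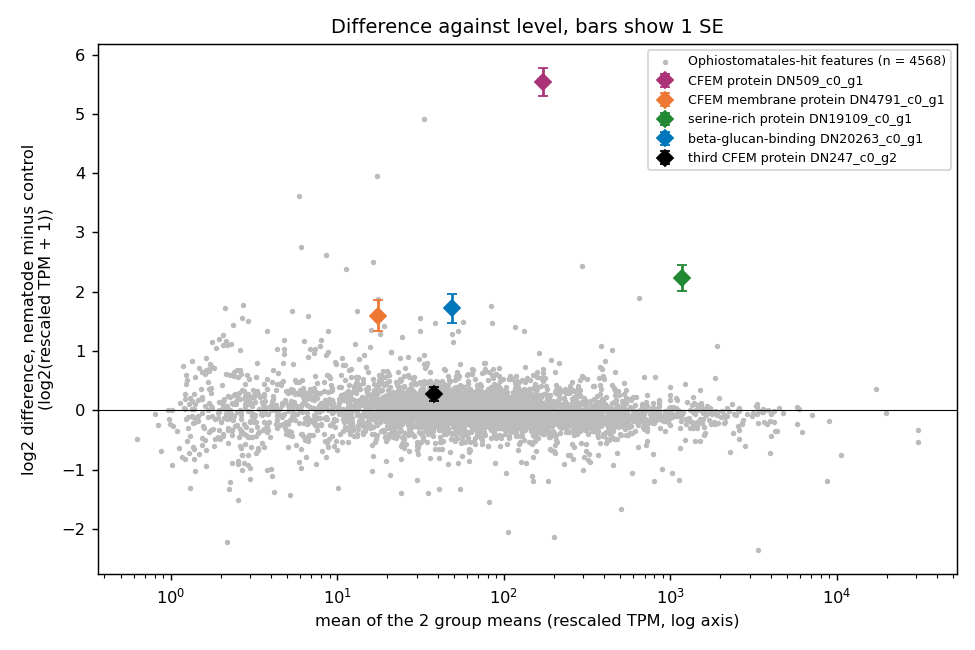
Log2 difference (nematode minus control, on log2(rescaled TPM + 1)) of 4568 fitted Ophiostomatales-hit features against their mean level in rescaled TPM (log axis). Grey points are single features, diamonds the 4 genes and the third CFEM feature, and bars 1 SE; TRINITY_DN509_c0_g1 lies highest at 5.54, and TRINITY_DN247_c0_g2 lies among the grey points at 0.27. Quantile normalization, not shown here, turned the direction of TRINITY_DN4791_c0_g1, TRINITY_DN20263_c0_g1 and TRINITY_DN247_c0_g2, with the class median then at -1.57.

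The nematode libraries also differ from each other in how much of their RNA matches Ophiostomatales, and this gives a ratio that does not use the controls. The controls do enter the choice of the 13300 features it is compared with. In deposited TPM, the log2 ratio of nematode replicate 1 to the mean of replicates 2 and 3 had a median of -0.52 over 4290 Ophiostomatales-hit features (5th to 95th percentile -0.85 to -0.22). Over the 13300 features of the nematode libraries alone it had a median of 0.38 (-0.38 to 0.94). The ratio was -0.75 for TRINITY_DN509_c0_g1, -0.51 for TRINITY_DN4791_c0_g1, -0.59 for TRINITY_DN19109_c0_g1 and -0.67 for TRINITY_DN20263_c0_g1. All 4 lay inside the 5th to 95th percentile of the Ophiostomatales-hit features, and 2.29% to 3.73% of the features of the nematode libraries alone had a lower ratio.

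**Figure D3:**
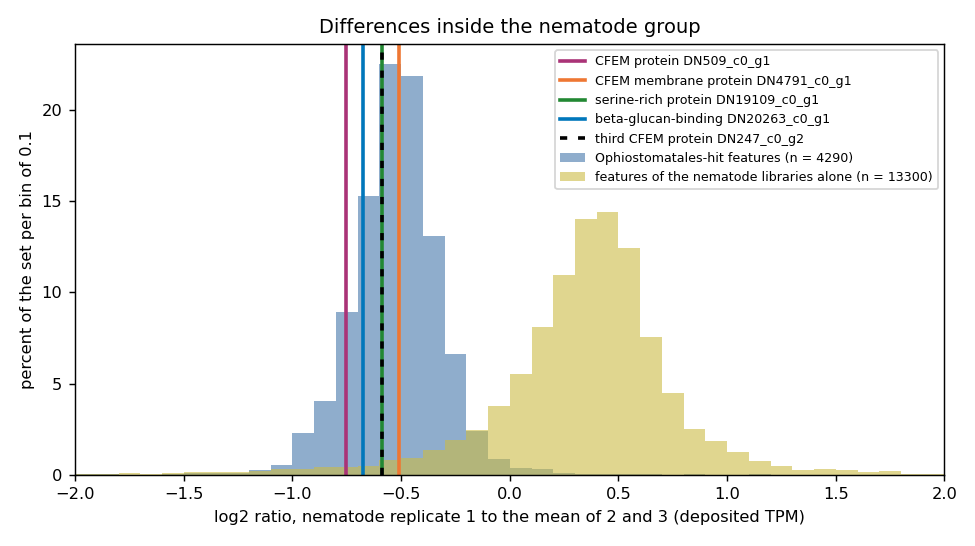
Log2 ratio of nematode replicate 1 to the mean of nematode replicates 2 and 3 in deposited TPM, as the percent of each set per bin of 0.1. Blue bars are 4290 Ophiostomatales-hit features, yellow bars the 13300 features of the nematode libraries alone, and vertical lines the 4 genes and the third CFEM feature, which lie between -0.75 and -0.51, within the blue bars.

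Features with the most similar profiles were found by the root mean square distance between centred log2 profiles over the 6 libraries, among 4080 Ophiostomatales-hit features of at least 10 rescaled TPM in the higher group. Since likeness to the chosen genes fixes their direction, their values are a description. Nearest to TRINITY_DN509_c0_g1 was the hypothetical protein SPI_07499 (TRINITY_DN8092_c0_g1; distance 0.39), at 0.808, 1.16 and 1.60 rescaled TPM in the controls and 55.5, 73.5 and 65.8 with nematodes. An amino acid permease (TRINITY_DN14813_c0_g1; 0.92) and the calcium-binding protein NCS-1 (TRINITY_DN2962_c0_g1; 1.06) came next. NCS-1 was listed at 0 in each control and was at 16.3, 7.53 and 11.6 rescaled TPM with nematodes. These distances, that of SPI_07499 included, were larger than those of the features named for the other genes. For the extracellular membrane CFEM protein the nearest were the hypothetical proteins CMQ_6329 (TRINITY_DN17254_c0_g1; 0.17) and CMQ_3552 (TRINITY_DN20627_c0_g1; 0.24) and a benzoate 4-monooxygenase cytochrome P450 (TRINITY_DN7888_c0_g1; 0.28), an enzyme class that hydroxylates aromatic acids. That P450 was at 9.42, 12.7 and 8.34 rescaled TPM in the controls and at 24.0, 26.5 and 27.1 with nematodes.

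For the serine-rich protein the nearest were the hypothetical protein SPSK_00507 (TRINITY_DN2710_c0_g1; distance 0.17), CMQ_3552 again (0.25) and a nonribosomal peptide synthetase (TRINITY_DN8287_c0_g1; 0.28). SPSK_00507 was at 98.5, 90.3 and 82.6 rescaled TPM in the controls and at 486.2, 633.9 and 385.6 with nematodes, with replicate 2 highest and replicate 3 lowest there, as in the serine-rich protein. For the beta-glucan-binding protein they were the hypothetical proteins CMQ_8089 (TRINITY_DN705_c0_g1; 0.22) and CMQ_4927 (TRINITY_DN21495_c0_g1; 0.23) and a laccase (TRINITY_DN415_c0_g1; 0.24), a copper enzyme that oxidizes phenols. The laccase was at 14.6, 17.0 and 14.9 rescaled TPM in the controls and at 41.6, 46.0 and 55.1 with nematodes. Of the 11 distinct features named, 8 lay inside the 5th to 95th percentile of Ophiostomatales-hit features in this within-group ratio. The amino acid permease (-1.42) and CMQ_4927 (-0.99) lay below it and NCS-1 (0.27) above it. The median over the features of the nematode libraries alone was 0.38. Which organism NCS-1 comes from was not tested.

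The other genes of the surface and its supply routes were tested through keyword lists, with the 4 genes left out. None of the 48 distinct Ophiostomatales-hit features in these lists passed (limma, Benjamini-Hochberg over 4568 features, threshold 0.05), where 0.613% of all fitted features were called higher and 0.0438% lower. At an unadjusted p under 0.05 there were 9 of the 48 (18.8%), against 494 of 4568 (10.8%). Their median log2 difference was 0.08 beside -0.03 over all fitted features, and 46 of the 48 lay within 1 of 0.

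Without control replicate 3, the library that stood apart, 9 of the 48 (18.8%) were called higher and 1 (2.08%) lower. In that fit 7.67% of 4552 features were called higher and 6.15% lower, so the background was larger as well. The gap between these shares and those of the lists was not tested. When all features were fitted together, whatever their best hit, 62.9% of them were called higher and 1.5% lower. The like background for the 48 is the Ophiostomatales-hit features alone. Of these, 196 were called higher and 91 lower in that fit, and 6 of the 48 passed as higher. Whether the lists differed from that background was not tested. None of the 48 passed as higher in TPM as deposited, where 82.8% of Ophiostomatales-hit features were called lower and 0.583% higher.

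Among secreted and surface proteins, 25 features were fitted, 21 of them beside the chosen genes. None of the 21 passed with all 6 libraries, with 3 at an unadjusted p under 0.05 and a median log2 difference of 0.06. A pair of SCP-like extracellular proteins, of a family of secreted proteins that bind sterols in yeast, stood highest by p after a GPI-anchor transamidase (TRINITY_DN18554_c0_g1; log2 difference 0.44 ± 0.12 SE, adjusted p = 0.224). TRINITY_DN2974_c0_g1 was at 35.8, 36.7 and 32.2 rescaled TPM in the controls and at 47.3, 42.8 and 56.3 with nematodes (adjusted p = 0.238). TRINITY_DN20464_c0_g1 was at 52.9, 63.7 and 55.0 in the controls and at 74.0, 82.2 and 114.9 with nematodes (adjusted p = 0.239). The nematode libraries lay above the controls for both, and both turned direction in TPM as deposited, where the class median lay at -0.82. Without control replicate 3, the GPI-anchor transamidase (adjusted p = 0.0344) and an extracellular cell wall glucanase (TRINITY_DN3972_c0_g1; adjusted p = 0.0437) were higher and a GPI-anchored cell wall protein (TRINITY_DN3738_c0_g1; adjusted p = 0.0301) was lower. The last 2 were not named by the rule and were chosen after their values were seen. Without control replicate 1 the GPI-anchor transamidase did not pass (limma, adjusted p = 0.603). The keywords also caught enzymes that make or attach GPI anchors, the GPI-anchor transamidase among them, and a tRNA-splicing effector. These are no surface proteins.

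**Figure D4:**
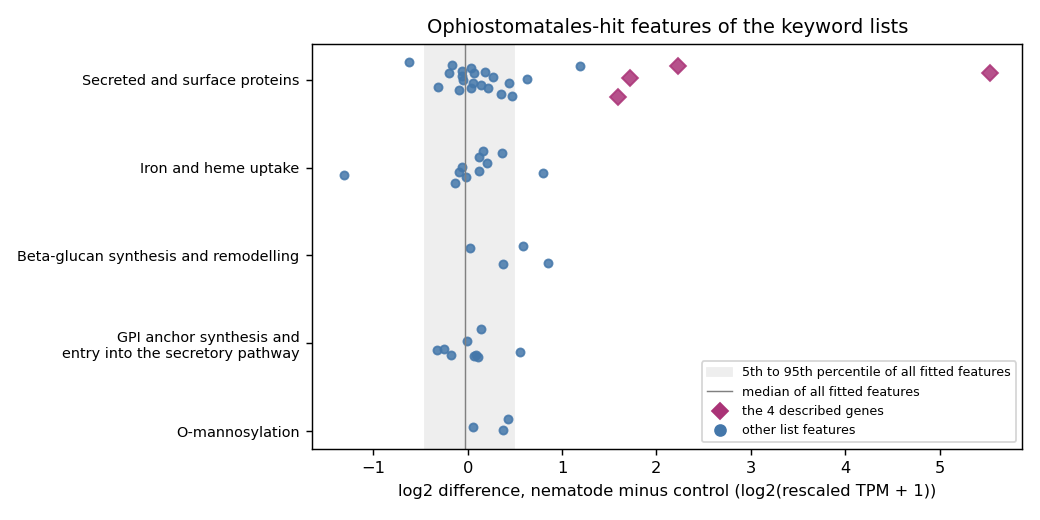
Log2 difference (nematode minus control, on log2(rescaled TPM + 1)) of the Ophiostomatales-hit features in 5 keyword lists, 1 point a feature, spread vertically at random. Diamonds are the 4 genes, the grey band the 5th to 95th percentile of all 4568 fitted features (-0.45 to 0.49) and the grey line their median (-0.03); none of the other list features passed the test with all 6 libraries.

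For iron and heme uptake, the route that CFEM proteins serve in Candida albicans, 11 features were fitted and none passed (1 at an unadjusted p under 0.05, median log2 difference 0.12). Vacuolar iron transporters and a siderophore biosynthesis protein were among them. No description in the fitted list names heme, so heme uptake itself was not covered. A ferric reductase-like protein (TRINITY_DN4006_c1_g1), of a class that reduces iron at the cell surface, was at 53.5, 48.6 and 64.8 rescaled TPM in the controls and at 90.7, 107.5 and 92.1 with nematodes (log2 difference 0.79 ± 0.14 SE, adjusted p = 0.0735). It was higher without control replicate 3 (0.91, limma, adjusted p = 0.00494) and did not pass without control replicate 1 (0.77, adjusted p = 0.284). Its direction turned in TPM as deposited (-0.030) and after quantile normalization (-0.66), where the class median lay at -0.82 and -1.57. The iron transport multicopper oxidase fet3 (TRINITY_DN2179_c0_g1), which oxidizes iron for uptake in yeast, was at 5.89, 6.44 and 35.9 in the controls and at 4.17, 5.37 and 2.79 with nematodes (adjusted p = 0.538). Its mean in the controls rested on replicate 3. Siderochrome-iron transporters TRINITY_DN2776_c0_g1 and TRINITY_DN3539_c0_g2 had log2 differences of 0.21 and 0.36 (adjusted p = 0.594 and 0.688). The first was 0.13 without nematode replicate 3 and the second 0.073 without control replicate 3. A cytochrome b561/ferric reductase feature (TRINITY_DN5323_c0_g2), chosen after its value was seen, was also higher without control replicate 3. Its log2 difference was then 0.42 (adjusted p = 0.0301), against 0.12 with all libraries (adjusted p = 0.892). The other features of this list did not pass in that fit.

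In beta-glucan synthesis and remodelling, 4 features were fitted and none passed (2 at an unadjusted p under 0.05, median log2 difference 0.48). These were gel1, GAS1 and gas1-like features. No glucan synthase was among them, so synthesis itself was not covered. The beta-glucanosyltransferase gel1 (TRINITY_DN3305_c0_g1), which lengthens beta-glucan chains in the wall, was at 115.4, 119.7 and 180.5 rescaled TPM in the controls and at 230.1, 261.2 and 247.4 with nematodes (log2 difference 0.85 ± 0.18 SE, adjusted p = 0.134). The groups did not overlap, and control replicate 3 was nearest to the nematode libraries. Without it the log2 difference was 1.07 (limma, adjusted p = 0.00159), and without control replicate 1 it was 0.73 (adjusted p = 0.386). After quantile normalization it was -0.070, with the class median at -1.57. The related surface protein GAS1 (TRINITY_DN2313_c0_g1) had a log2 difference of 0.37 (adjusted p = 0.391), or 0.46 without control replicate 3 (adjusted p = 0.0462). Without control replicate 1 its log2 difference was 0.34 (limma, adjusted p = 0.763). The gas1-like proteins TRINITY_DN9095_c1_g1 and TRINITY_DN1948_c0_g1 ranged from 9.73 to 43.5 and from 56.8 to 180.8 rescaled TPM over the 6 libraries and overlapped between the groups.

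Of 9 features for GPI anchor synthesis and entry into the secretory pathway, none passed (2 at an unadjusted p under 0.05, median log2 difference 0.06). Enzymes whose description holds the words GPI-anchor, such as the transamidase TRINITY_DN18554_c0_g1, fell in the surface list and are given there. The translocation protein Sec62 (TRINITY_DN4142_c0_g1), which helps proteins enter the endoplasmic reticulum, was at 136.0, 142.0 and 127.2 rescaled TPM in the controls and at 189.4, 210.8 and 194.1 with nematodes (log2 difference 0.55 ± 0.09 SE, adjusted p = 0.0735). Its adjusted p (limma) was 0.0129 without control replicate 3 and 0.312 without control replicate 1. A subunit of the first enzyme of GPI synthesis, gpi3 (TRINITY_DN19052_c0_g1), had a log2 difference of -0.32 (adjusted p = 0.391), another gpi3 feature (TRINITY_DN15375_c0_g1) -0.18 (0.705, and -0.071 without nematode replicate 3) and the signal recognition particle subunit SRP19 (TRINITY_DN18649_c0_g1) -0.25 (0.579).

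Of 3 protein O-mannosyltransferases, which add mannose to serine-rich proteins, none passed with all libraries (1 at an unadjusted p under 0.05, median log2 difference 0.37). The mannosyltransferase pmti (TRINITY_DN5101_c1_g1) was at 50.0, 57.1 and 71.2 rescaled TPM in the controls and at 75.0, 87.1 and 76.5 with nematodes (adjusted p = 0.354). The protein O-mannosyl transferase TRINITY_DN4245_c0_g1 was at 88.7, 91.0 and 131.5 in the controls and at 126.4, 145.7 and 126.5 with nematodes (adjusted p = 0.491), and the groups overlapped. Both were higher without control replicate 3 (log2 difference 0.57 and 0.56, adjusted p = 0.0199 and 0.0141). With all libraries and a replicate block, their adjusted p (limma) was 0.671 and 0.796. Protein mannosyltransferase 1 (TRINITY_DN3163_c0_g1) had a log2 difference of 0.06 with all libraries. All 3 turned direction in TPM as deposited and after quantile normalization, where the class median lay at -0.82 and -1.57.

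**Figure D5:**
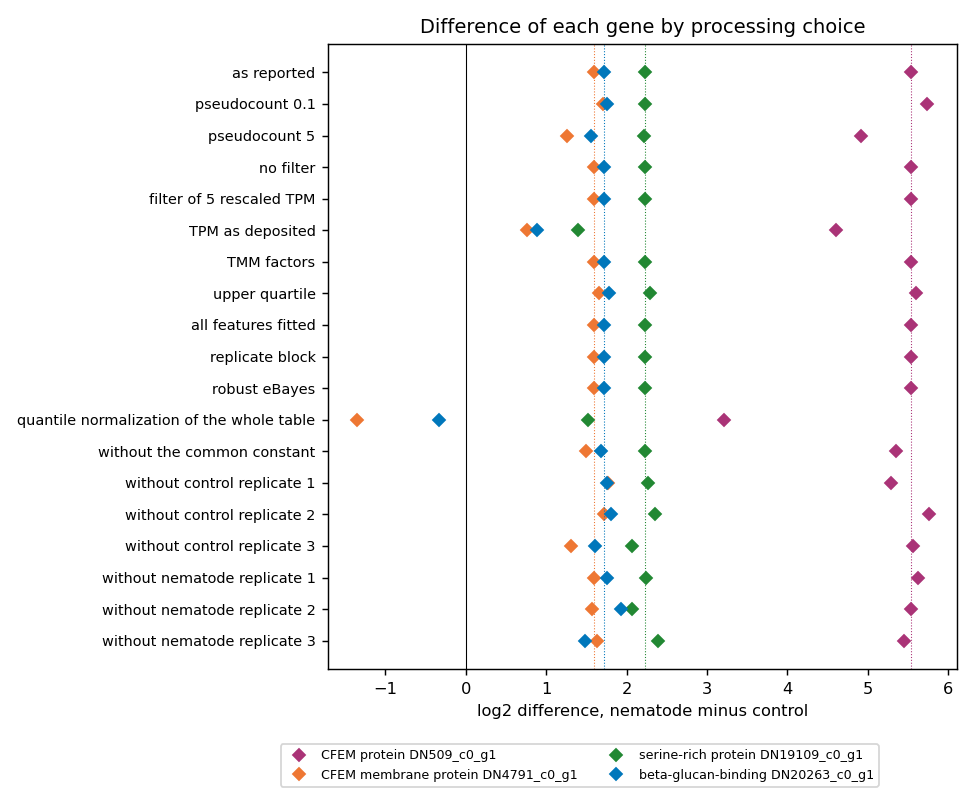
Log2 difference (nematode minus control) of each of the 4 genes under every processing choice tried and with each library left out in turn. Dotted lines mark the values as reported; quantile normalization of the whole table puts TRINITY_DN4791_c0_g1 at -1.35 and TRINITY_DN20263_c0_g1 at -0.34, left of 0, and every other point lies right of 0.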

How the data were processed

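Total RNA of hyphae went into Illumina libraries, per the labels' protocols. The authors deposited 1 table of TPM for 6 libraries and 26694 features, 13460 with a best-hit description; feature names have the form of the Trinity assembler, with the aligner and quantifier not given in the sources used here. TPM keeps no depth, so no counting interval is given. The deposited mean columns differ from recomputed means by at most 3.33e-07 TPM and entered no step.

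Groups and replicate numbers come from the sample titles, and the treatment labels give the same groups. Libraries were divided by their median ratio over 4505 Ophiostomatales-hit features above 0 in every library (best hit in Sporothrix, Grosmannia, Ophiostoma or Esteya), and the table was multiplied by 1 common factor, 2.01, which sets the class totals to average 1e+06. Features of this class with at least 1 rescaled TPM in at least 3 libraries were fitted as log2(rescaled TPM + 1) in limma 3.58.1 (R 4.3.3; eBayes with a trend, no covariate), with Benjamini-Hochberg adjustment and a threshold of 0.05. The code was tested on simulated data. Such log2 differences understate changes of low features. An exact permutation of 3 against 3 libraries cannot go below p = 0.1 and was not used.

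The genes and lists were chosen with earlier results of these data known. Named features are the 4 genes, all CFEM features, up to 4 per list by smallest p, and the 3 nearest profiles per gene among features of at least 10 rescaled TPM; others are said to be chosen later. Alternatives covered the pseudocount, filter, scaling (TMM computed unweighted, trimming 30% of M and 5% of A at each end), features fitted, a replicate block, robust eBayes and each library left out. Whole-table quantile normalization and omission of the common factor were added after the data were seen.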

Additional observations from a re-analysis of the deposited data

How the results depend on the processing

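Under 16 of the 18 alternatives, or 15 for TRINITY_DN509_c0_g1, the log2 differences of the 4 genes moved by less than 1 SD between replicates. These counts include the filters, the features fitted, the replicate block and robust eBayes, which cannot change the log2 difference of a gene. With each library left out in turn, their log2 differences ranged from 5.29 to 5.76 (TRINITY_DN509_c0_g1), 1.31 to 1.77 (TRINITY_DN4791_c0_g1), 2.06 to 2.39 (TRINITY_DN19109_c0_g1) and 1.48 to 1.93 (TRINITY_DN20263_c0_g1). A pseudocount of 5 gave TRINITY_DN509_c0_g1 4.91. TPM as deposited gave 4.61, 0.77, 1.39 and 0.89 in the same order, and whole-table quantile normalization, chosen after seeing the data, 3.22, -1.35, 1.52 and -0.34; both move the class median, to -0.82 and -1.57. The depth behind each TPM is unknown, and with 3 libraries a group the precision rests on few samples. The causes of these shifts were not tested further.

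With 28 features of the class higher and 2 lower as reported, the counts were 196 and 91 with all features of the table fitted, 6 and 4496 after quantile normalization, and 7 to 349 and 0 to 280 with a library left out, the largest without control replicate 3. In TPM as deposited 3695 were lower, and 1 was lower with the upper quartile or robust eBayes. The replicate block gave 12 higher and 0 lower and changed no list count. The deviations of same-numbered libraries had correlations of 0.15, -0.43 and -0.28. With 3 libraries a group these cannot decide whether the numbers pair them.

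In the lists, with the 4 genes left out, TPM as deposited gave 15 secreted and surface, 6 iron and heme, 1 beta-glucan, 8 GPI and secretory and 1 O-mannosylation features lower, and quantile normalization 21, 11, 3, 8 and 3, with 1 CFEM feature lower. With all features fitted, 3, 1, 1 and 1 of the first 4 lists were higher. With a library left out, 0 to 2 secreted and surface features were higher and 0 to 1 lower, and 0 to 2 iron and heme, 0 to 2 beta-glucan, 0 to 1 GPI and secretory and 0 to 2 O-mannosylation features were higher.

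Log2 differences that turned negative in TPM as deposited, each followed by its value after quantile normalization, were those of TRINITY_DN247_c0_g2 (-0.53, -1.75), TRINITY_DN18554_c0_g1 (-0.39, -0.86), TRINITY_DN2974_c0_g1 (-0.34, -1.50), TRINITY_DN20464_c0_g1 (-0.19, -0.86), TRINITY_DN4006_c1_g1 (-0.030, -0.66), TRINITY_DN2776_c0_g1 (-0.57, -2.02), TRINITY_DN3539_c0_g2 (-0.39, -2.21), TRINITY_DN2313_c0_g1 (-0.45, -0.96), TRINITY_DN9095_c1_g1 (-0.20, -1.83), TRINITY_DN1948_c0_g1 (-0.80, -1.17), TRINITY_DN4142_c0_g1 (-0.28, -0.40), TRINITY_DN5101_c1_g1 (-0.39, -1.13), TRINITY_DN4245_c0_g1 (-0.45, -0.76) and TRINITY_DN3163_c0_g1 (-0.77, -0.94). TRINITY_DN3305_c0_g1 turned after quantile normalization alone (-0.070). With a library left out, TRINITY_DN3163_c0_g1 ranged from -0.016 to 0.20, negative without control replicate 1 (-0.011) or 2, and TRINITY_DN1948_c0_g1 from -0.47 to 0.35, negative without control replicate 3 or nematode replicate 3 (-0.091).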

Other observations

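The keywords for secreted and surface proteins also matched 19 features whose best hit lies outside Ophiostomatales, which entered no test. Of these, 8 (42.1%) had at least 1 TPM in every nematode library and under 1 TPM in every control, beside 65.9% of all 8847 described features outside Ophiostomatales, and 4 (21.1%) were listed at 0 in every nematode library, beside 10.5%. Among the 8 were features described as a transcriptional effector of alcohol dehydrogenase and a GPI anchor biosynthesis protein, which the keywords caught and which are no surface proteins. With so few features nothing is read from these shares. The features named here were chosen after their values were seen. A cell wall protein PRY3 feature with a Choanephora hit (TRINITY_DN810_c0_g1), of the same SCP-like family as those above, had 28.0, 25.7 and 24.2 TPM in the nematode libraries and was listed at 0 in each control. A hydrophobin, a small coat protein of fungal surfaces, with a Clonostachys hit (TRINITY_DN17785_c0_g1) was at 0.91, 11.4 and 0 TPM in control replicates 1 to 3 and listed at 0 in all nematode libraries. A secreted aspartic proteinase precursor with a Coniochaeta hit (TRINITY_DN21833_c0_g1) was measured in all 6 libraries, without overlap: 1.52, 1.54 and 1.99 TPM among controls, against 4.62, 6.03 and 5.54 TPM among nematode libraries.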
